A study of Mus musculus with 2 samples.

Results

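Among the ST2+ cells sorted from fetal mouse lungs, a small population carried Gzmb, the gene of the serine protease granzyme B, together with Scin, the gene of the actin-severing protein scinderin, and genes shared by mast cells and basophils. These Gzmb Scin cells numbered 356 of 8598 singlets (4.14%). They were chosen by their measured UMIs, the molecules counted by unique molecular identifiers: at least 3 of Tyrobp, at least 1 of Hdc, at least 3 of Gzmb, at least 2 of Scin, Angpt1 and Kel together, and none of Mrgprb1 or Mrgprb2. A singlet was a barcode with at least 200 genes, at most 5% mitochondrial UMIs and a top hashtag of at least 10 UMIs and 3 times the next. For comparison, 2516 mast cells (Cma1 of at least 3, Hdc of at least 5, Gzmb of at most 2) and 248 basophils (Mcpt8 of at least 5, Cma1 and Gzmb of at most 2) were taken from the same singlets, and no cell was in more than 1 class.

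The cells came from wild-type C57BL/6J fetuses at gestation day 18. Mothers were 9-week-old pregnant mice that drank water with 1.3 µg/ml of dexamethasone (DEX), a synthetic glucocorticoid, or with PBS, from gestation day 12. The lungs of 8, 9, 5 and 8 fetuses were pooled within the litters DEX-1, DEX-2, PBS-1 and PBS-2, each litter was marked with its own hashtag, and live CD45+ ST2+ cells negative for a set of lineage markers, among them CD3e, CD4, CD8A, CD11b, CD11c and TER119, were sequenced in 1 gene expression library with 1 hashtag library. Each treatment thus had 2 litters, which served as replicates. The sample label names the cells as ILC2s, and the Gzmb Scin cells did not show that profile: the 8 ILC2 markers summed to 125 to 191 CPM per litter, against 2420 to 2660 CPM in 1207 cells with Gata3 of at least 3 and Il7r of at least 1. The 11 mast cell markers summed to 13800 to 16400 CPM per litter, against 53600 to 58900 CPM in the mast cells and 3950 to 5200 CPM in the basophils. The 9 basophil markers, which share Fcer1a and Cpa3 with the mast cell list, summed to 5490 to 6920, 9560 to 10900 and 9380 to 13400 CPM in the same order of classes. Cpa3 alone gave 4021 to 4993, 7829 to 8764 and 1019 to 1355 CPM, most of the sum in the Gzmb Scin cells and mast cells but not in basophils. Cma1, Hdc, Mrgprb1, Mrgprb2 and Mcpt8 in these lists were read to choose the classes, and Il7r in the ILC2 list to choose the 1207 cells. The sums are thus partly set by these choices. CPM is the usual scaling of a gene's UMIs by the total UMIs of the summed cells. Total UMIs of the Gzmb Scin cells ranged from 1246080 to 2437894 per litter. Their median was 16915 UMIs per cell, against 6787 in mast cells, 7803 in basophils and 8121 over all singlets.

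Mast cells and basophils are granulocytes of the blood and tissues that store histamine and proteases and carry the high-affinity IgE receptor. Both arise from bone marrow or fetal liver progenitors, and in the mouse a shared precursor that enters tissues with integrin α4β7 has been described. Mast cell granules hold chymases, tryptases and carboxypeptidase, whereas mouse basophils are marked by the proteases Mcpt8 and Prss34. Granzyme B is best known from cytotoxic lymphocytes.

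Gzmb separated the cells into groups that were nearly apart. Of the singlets that met the other 5 criteria, 122 had 0 Gzmb UMIs, 19 had 1 and 8 had 2, whereas 10 had 3, 5 had 4, 22 had 5 to 9, 70 had 10 to 29, 147 had 30 to 99 and 102 had 100 to 359. The members' median was 63.5 Gzmb UMIs. Just inside the threshold, the 15 members with 3 or 4 Gzmb UMIs had 124 CPM of Itga4 and 13300 CPM of Cma1, against 519 and 5874 CPM over all members. Just outside it, the 149 cells with at most 2 Gzmb UMIs included 84 of the mast cells and 28 of the basophils.

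**Figure D1:**
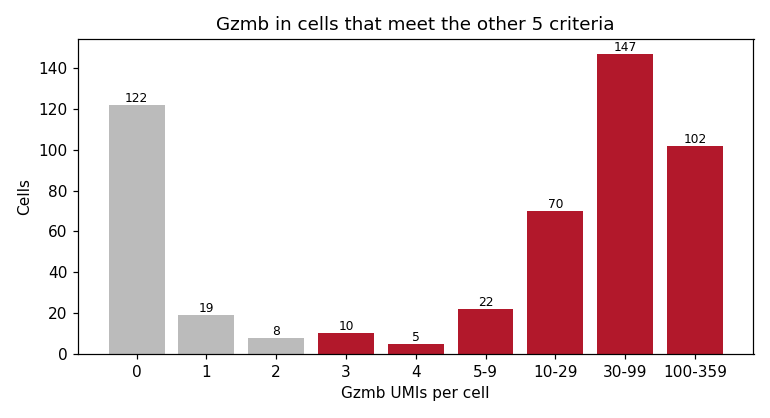
Number of cells (vertical axis) by Gzmb UMIs per cell (horizontal axis, in bins of unequal width) among singlets that met the other 5 criteria. Grey bars are cells below the threshold of 3 and red bars are the members. Few cells lie between 2 and 4 UMIs, and 102 cells hold 100 or more.

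The second threshold was less sharp. In all, 229 singlets met every criterion except that Scin, Angpt1 and Kel together gave at most 1 UMI. These cells had 1555 CPM of Gzmb against 3982 CPM in the pooled members, 161 against 519 CPM of Itga4, and a median of 10222 UMIs per cell against 16915. The 54 members with exactly 2 of these UMIs had 2521 CPM of Gzmb and 360 CPM of Itga4, between the other members and the cells left out.

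The genes that chose the cells are given as a description, since the rule used them. Gzmb stood at 4213, 4477, 3343 and 3634 CPM in DEX-1, DEX-2, PBS-1 and PBS-2. Mast cells had 5.39 to 9.27 CPM and basophils 19.8 to 52.1 CPM of it, and in 202 B cells (Cd79a of at least 5), which should lack the gene, 1.98% held a UMI at a median of 3592.5 UMIs per cell. With every cell thinned to 2000 UMIs, 94.1% of the Gzmb Scin cells and 1.04% of the B cells held a Gzmb UMI. Scin was at 304, 247, 241 and 195 CPM in the same order of litters, with a UMI in 90.2% of members. Angpt1, the gene of a Tie2 ligand of blood vessels and stem cell niches, averaged 134 CPM ± 12.5 (SD, n = 4 litters), and 73.9% of members held a UMI. Kel, a red cell surface peptidase, averaged 22.6 CPM ± 7.48 with a UMI in 25.0% of members, so most cells passed through Scin and Angpt1. Nkg7, a granule membrane gene of cytotoxic cells that the rule did not use, averaged 542 CPM ± 35.5, against 27.4 CPM in mast cells and 320 CPM in basophils.

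Gzmb lies at chr14:56258838-56262260 on the minus strand (mm10), in the chymase locus with Gzmc, Ctsg, Mcpt8, Mcpt4, Mcpt2, Mcpt1 and Cma1, which lies at chr14:55941451-55944675. Gzmb was the gene of this locus that set the cells apart, and Cma1 the one that divided them, so the 250 bases before both RefSeq start sites (GRCm38.p6) are shown in the direction of transcription. The Gzmb window is chr14:56262335-56262584 and the Cma1 window chr14:55944676-55944925, both on the minus strand. Capitals mark matches on either strand to a short motif of RUNX, AP-1, GATA or MITF factors, spelled out after the sequences.
Gzmb: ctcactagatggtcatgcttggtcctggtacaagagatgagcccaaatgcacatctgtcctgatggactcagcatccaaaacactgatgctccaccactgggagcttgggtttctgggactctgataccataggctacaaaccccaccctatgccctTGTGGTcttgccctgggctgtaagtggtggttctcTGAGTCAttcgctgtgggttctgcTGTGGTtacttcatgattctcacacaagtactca
Cma1: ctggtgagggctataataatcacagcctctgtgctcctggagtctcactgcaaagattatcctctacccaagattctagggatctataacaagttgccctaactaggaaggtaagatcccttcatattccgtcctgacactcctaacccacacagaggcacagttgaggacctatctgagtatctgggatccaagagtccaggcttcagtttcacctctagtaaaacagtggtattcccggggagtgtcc

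The Gzmb window held 3 matches, to the RUNX and AP-1 motifs, and the Cma1 window 0. The RUNX letters searched were TGTGGT, which 14.0% of all 32851 RefSeq windows of this length held on either strand. For AP-1 factors the letters were TGACTCA, and 4.46% of the windows held them. GATA factors were searched with AGATAA, which was present in 9.99% of the windows. MITF was searched with CACATG, an E-box, and 12.3% of the windows held it. The matches are a description of these letters and no measure of binding.

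To place the Gzmb Scin cells between mast cells and basophils, UMIs were summed per litter and class. Because the classes were cut from the same cells, the comparison carries no test. A gene was counted as higher or lower when the 4 litters of one class did not overlap those of the other and the mean log2(CPM + 1) difference was at least 1, among genes with a mean of at least 10 CPM in either class. Against mast cells, 582 of 8570 genes (6.79%) were counted higher and 566 (6.6%) lower in the Gzmb Scin cells. Against basophils, 1028 of 8385 (12.3%) were higher and 492 (5.87%) lower. The median log2 difference of all genes against basophils was 0.34, and with TMM scaling, which brought it to 0.0681, 596 were higher and 669 lower. The 30 genes with the most extreme differences in each comparison include genes of the rules, whose direction was fixed. All 30 kept their direction with cells thinned to 2000 UMIs and with cells of at least 10000 UMIs.

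The granule proteases were mixed. The chymase Cma1 stood at 4838, 6137, 6152 and 6025 CPM in DEX-1, DEX-2, PBS-1 and PBS-2, below the mast cells (20096 to 23606 CPM, chosen by this gene) and above the basophils (18.1 to 35.7 CPM, chosen for its absence). The tryptase Tpsb2 was at 176, 573, 620 and 701 CPM, against 11436 to 13320 CPM in mast cells and 5.5 to 12.9 CPM in basophils. Neither gene overlapped between classes in any litter. The basophil protease Mcpt8 was at 297, 288, 300 and 405 CPM, above the 27.1 to 64.7 CPM of mast cells and below the 1871 to 3487 CPM of basophils, which this gene chose. Prss34, by contrast, was at 282 to 475 CPM in the Gzmb Scin cells and 368 to 571 CPM in mast cells, which overlapped, and at 4052 to 6507 CPM in basophils. Few Gzmb Scin cells carried it: the 3 highest of each litter held 74.9 to 83.9% of its UMIs, against 10.2 to 14.9% in mast cells. The 263 Gzmb Scin cells with at least 3 Cma1 UMIs had 127 CPM when pooled, and the other 93 had 1149 CPM.

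By list, 3 of 9 measured genes of the chymase locus were counted higher than in mast cells (Mcpt8, Gzmb and Gzmc) and 3 lower (Cma1, Mcpt2 and Mcpt4), while 6 were higher and 2 lower than in basophils. The direction of Gzmb in both comparisons was fixed by the choice of the classes, and the sizes for Cma1 and, against basophils, Mcpt8 were partly set by it. Members of this locus are close paralogs, so reads may be split between them and their sizes are uncertain. Of 5 tryptase and carboxypeptidase genes, Tpsab1 and Tpsb2 were lower than in mast cells, and 4 were higher and Prss34 lower than in basophils. The carboxypeptidase Cpa3 lay between the other classes, at 4021 to 4993 CPM against 7829 to 8764 CPM, and basophils had 1019 to 1355 CPM.

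Kit, the stem cell factor receptor of mast cells, was found in 95.8% of the Gzmb Scin cells, at 676, 498, 588 and 688 CPM, against 1020 to 1246 CPM in mast cells and 11.3 to 92.9 CPM in basophils. Genes of biogenic amine and heparin synthesis were lower than in mast cells for 6 of 12 and higher for 0, with a median log2 difference of -1.02 where all genes had 0.0528. Hdc, 1 of the 6, was read to choose the mast cells. Over all genes 6.79% were higher and 6.6% lower than in mast cells, and 12.3% and 5.87% than in basophils. A count of 0 in this list is near these shares. Against basophils 6 of the 12 were higher and 0 lower, with a median of 1.25 where all genes had 0.34. Among them, the serotonin enzyme Tph1 averaged 141 CPM ± 29.3 against 1259 CPM in mast cells and 0.707 CPM in basophils. The α chain of the IgE receptor, Fcer1a, was at only 4.01 to 19.7 CPM, below mast cells (57.1 to 107 CPM) and basophils (98.1 to 132 CPM). Its γ chain Fcer1g was plentiful, at 1613 to 1711 CPM, but still under the 3061 to 3296 CPM of mast cells.

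NK, ILC1 and T cell markers were low. Of 3 measured ILC2 markers, Rora and Thy1 were counted higher and Il7r lower than in mast cells, where 6.79% of all genes were higher and 6.6% lower. Of 10 NK and ILC1 markers, 7 had 0 UMIs in all 356 cells, among them Ncr1, Klrb1c, Eomes and Tbx21, and 3 UMIs over the class would be 0.443 CPM. The 10 markers summed to 7.38 to 15.3 CPM per litter, mostly from Prf1, the gene of perforin, at 6.56 to 15.3 CPM. Cd3e was at 0 to 0.82 CPM. Of 12 measured cytotoxic granule genes, Gzmb, Gzmc, Prf1 and Nkg7 were counted higher and 0 lower than in mast cells, with Gzmb fixed by the choice of the classes. The 0 is near the 6.6% of all genes lower than in mast cells. The germline T cell receptor segment Trbv13-2 had 46.5 to 93.9 CPM in the Gzmb Scin cells, with a UMI in 50.8% of them, against 4.22 to 10.6 CPM in mast cells and 5.16 to 12.1 CPM in basophils.

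**Figure D2:**
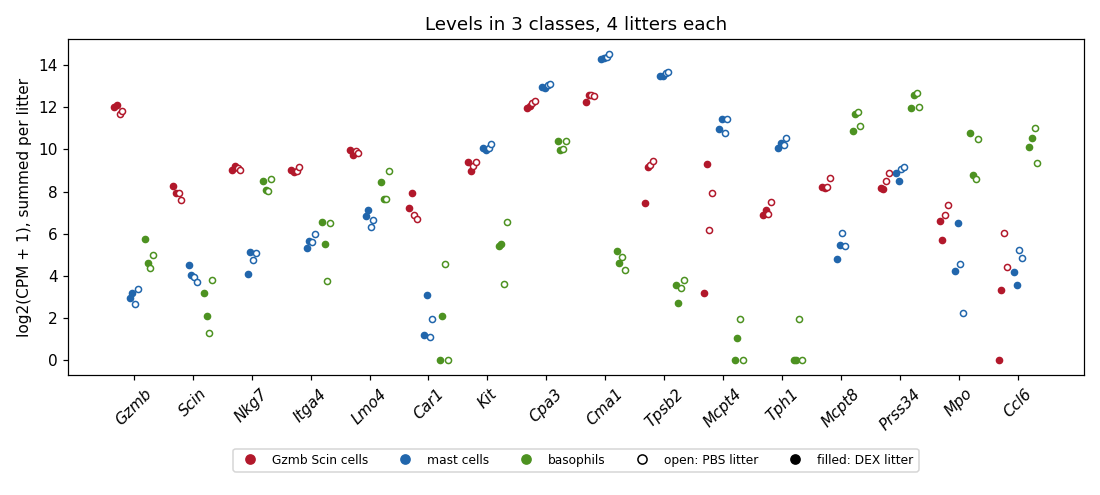
Levels of 16 genes as log2(CPM + 1) of the UMIs summed per litter (vertical axis), for Gzmb Scin cells (red), mast cells (blue) and basophils (green), with 1 point per litter. Among the classes drawn, Gzmb, Scin, Itga4, Lmo4 and Car1 are highest in the Gzmb Scin cells, while Cma1, Tpsb2, Mcpt8 and Cpa3 lie between the other classes.

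Adhesion and chemokine receptor genes differed gene by gene. Itga4, the α4 integrin chain (chr2:79255426-79333123, plus strand), stood at 526, 483, 508 and 577 CPM in the Gzmb Scin cells. Mast cells had 39.0 to 63.0 CPM and basophils 12.7 to 93.3 CPM, so the classes did not overlap. Its partner chain Itgb7 did not set the cells apart, at 230 to 278 CPM against 237 to 284 CPM in mast cells. Of 13 measured homing receptors, 0 were lower than in mast cells, and Itga4, Ccr1, Ccr2 and Selplg were among those higher. Against basophils 2 of 15 were higher (Itga4 and the fractalkine receptor Cx3cr1) and 9 lower, among them Cxcr2, Cxcr4 and Itgb2. Over all genes 12.3% were higher and 5.87% lower than in basophils, so the 2 higher genes are near that share. Cxcr4, a bone marrow retention receptor, averaged 22.6 CPM against 158 CPM in basophils.

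The cytokine genes were split between the neighbours. Il13, a type 2 cytokine gene, was at 537, 401, 485 and 578 CPM, above mast cells (56.2 to 101 CPM) and basophils (89.1 to 173 CPM). In the B cells, Il13 was at 0 CPM in 3 litters and at 12.7 CPM in the other one. Il4 averaged 361 CPM ± 45.1 and overlapped mast cells at 388 CPM ± 26.4 (SD, n = 4 litters each). Of 15 measured cytokine and chemokine genes, 6 were higher than in mast cells (Il6, Il13, Ccl4, Ccl9, Areg and Osm) and Tnf lower. Over all genes 6.79% were higher and 6.6% lower than in mast cells. Against basophils, Il13 and Ccl1 were higher and 8 were lower, including Ccl3 at 208 to 389 CPM against 3236 to 6587 CPM and Csf1 at 78.0 to 165 CPM against 668 to 1314 CPM. The 2 higher genes of 15 are near the 12.3% of all genes higher than in basophils, where 5.87% were lower.

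Among the transcription factors, Gata1 and Gata2, which both lineages need, did not separate the classes, and Gata2 was at 604 to 882 CPM in the Gzmb Scin cells. Lmo4, a LIM-domain cofactor, was at 1015, 858, 965 and 913 CPM, above mast cells (78.8 to 139 CPM) and basophils (197 to 506 CPM). The 1207 ILC2s, defined by Gata3 and Il7r UMIs, had 932 to 1235 CPM of it, so high Lmo4 was not particular to the Gzmb Scin cells. Mitf, which drives mast cell genes, was at 45.9 to 103 CPM, below the 108 to 175 CPM of mast cells and above the 1.41 to 12.9 CPM of basophils. Cebpa, a factor of the basophil and granulocyte lineages, averaged 14.4 CPM ± 4.06 against 10.0 CPM in mast cells and 108 CPM in basophils. Of 24 measured factors, Lmo4, Runx1 and Ikzf2 were higher and 3 lower than in mast cells, where 6.79% of all genes were higher and 6.6% lower.

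Progenitor genes did not move as a block. Sox4, a gene of immature cells, averaged 149 CPM ± 16.2 against 22.7 CPM in mast cells and 24.9 CPM in basophils, and Erg, a transcription factor of stem cells, 76.6 CPM ± 15.3 against 26.5 and 14.1 CPM. Cd34, by contrast, averaged 235 CPM, below the 609 CPM of mast cells and above the 27.5 CPM of basophils. Car1, a carbonic anhydrase of erythroid precursors, was at 148, 240, 118 and 104 CPM, against 1.17 to 7.65 CPM in mast cells. Of 6 measured megakaryocyte and erythroid markers, Car1 and Epor were higher and Itga2b lower than in mast cells, and Itga2b was also lower than in basophils. Of 7 measured stem and progenitor markers, 2 were higher and 2 lower than in mast cells, and 6 were higher and 0 lower than in basophils. Over all genes 6.79% were higher and 6.6% lower than in mast cells, and 12.3% and 5.87% than in basophils. The 0 lower than in basophils is thus near the share of all genes.

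Several genes of the mast cells were at far lower levels. The phospholipase Pla2g7 was at 34.0 to 52.2 CPM against 997 to 1113 CPM in mast cells, Syngr1 at 12.0 to 18.7 against 373 to 457 CPM, and the imprinted growth gene Igf2 at 1.64 to 5.62 against 190 to 328 CPM. Pla2g7 was found in 2300 of 2516 mast cells and in 82 of the 356 Gzmb Scin cells. Of the 15 genes most below mast cells, Scgb1a1 and Cbr2 are genes of airway and alveolar cells whose UMIs sat in few mast cells: the 3 highest cells held 86.9% and 62.4% of them. Both Mrgprb1 and Mrgprb2 were also in this list, as the rule requires.

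Several lipid mediator genes were below the mast cell level. Alox5ap, which presents arachidonic acid to the leukotriene enzyme, was at 788, 853, 1228 and 904 CPM in DEX-1, DEX-2, PBS-1 and PBS-2, below mast cells (2073 to 2351 CPM) and basophils (3891 to 6217 CPM). Hpgds, the prostaglandin D synthase of mast cells, averaged 57.0 CPM ± 6.32 against 324 CPM in mast cells and 1.57 CPM in basophils. The leukotriene B4 receptor Ltb4r1 was at 77.3 to 112 CPM, above mast cells (6.61 to 15.5 CPM) and under basophils (141 to 176 CPM). Of 8 measured eicosanoid genes 4 were lower and 0 higher than in mast cells. Over all genes 6.6% were lower and 6.79% higher, so the 0 is near that share.

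Among cytokine receptors, Il2rg, the common γ chain, was at 419 to 473 CPM, above mast cells (208 to 226 CPM) and basophils (159 to 248 CPM). The ST2 gene Il1rl1, whose protein the sort selected, was at 215 to 326 CPM, below mast cells (498 to 612 CPM) and above basophils (104 to 130 CPM). Of 18 measured receptors 2 were higher and 7 lower than in mast cells, and 7 were higher and 6 lower than in basophils. Over all genes these shares were 6.79% and 6.6% against mast cells and 12.3% and 5.87% against basophils. Il3ra, the interleukin-3 receptor α chain used by basophils, averaged 95.1 CPM ± 15.5 against 325 CPM in basophils.

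Among the genes most above basophils were several of mast cells. Tpsg1, a membrane-bound tryptase, was at 128, 162, 233 and 214 CPM and had 0 UMIs in the 248 basophils, where 3 UMIs would be 1.27 CPM. The chemokine gene Ccl1 was at 32.1 to 143 CPM and also had 0 UMIs in basophils. Smpx, known from muscle, averaged 188 CPM ± 36.8 against 0.629 CPM. On the other side, the chemokine gene Ccl6 averaged 23.8 CPM against 1329 CPM in basophils, and Alox15, a lipoxygenase, 2.66 CPM ± 2.15 against 73.8 CPM. Ccl6 was found in only 2.53% of the Gzmb Scin cells and varied between 0 and 65.5 CPM over the litters.

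Cell cycle genes were widely detected. Of 21 mitosis genes 20 were counted higher than in mast cells and 0 lower, with a median log2 difference of 2.5, and of 21 measured S phase genes 17 were higher and 0 lower, with a median of 1.59. Mki67 stood at 104, 94.3, 111 and 109 CPM against 12.1 to 24.8 CPM in mast cells. In cells with at least 10000 UMIs these medians were 1.95 and 1.1. Against basophils 9 S phase and 2 mitosis genes were higher, and the median for mitosis genes went from 0.516 to -0.14 in cells with at least 10000 UMIs. The 2 of 21 mitosis genes are no larger a share than the 12.3% of all genes higher than in basophils.

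Because the Gzmb Scin cells were deep, every cell was thinned to 2000 UMIs and counted if at least 3 came from the S phase and mitosis lists. Of the Gzmb Scin cells 43.7% and 58.6% of the DEX litters and 60.5% and 54.8% of the PBS litters passed, against 11.3 to 18.5% of mast cells, 14.3 to 37.5% of basophils and 5.88 to 16.0% of B cells. No litter of the Gzmb Scin cells fell among those of the mast cells or basophils. The rule's minimums are counts of UMIs, which deep cells meet more easily, and thinning came after that choice. The 229 singlets that failed only the minimum on Scin, Angpt1 and Kel had 47.9 CPM of Mki67, against 103 CPM in the pooled members. Whether this choice adds to the gap was not tested. The ILC2s, at 48.5% over all litters, overlapped the Gzmb Scin cells. Without thinning, the shares were 91.5 to 96.8% in the Gzmb Scin cells and 48.3 to 58.3% in mast cells, and thinning left out 0 and 215 cells. Free RNA can add UMIs to such counts, and its part was not tested.

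**Figure D3:**
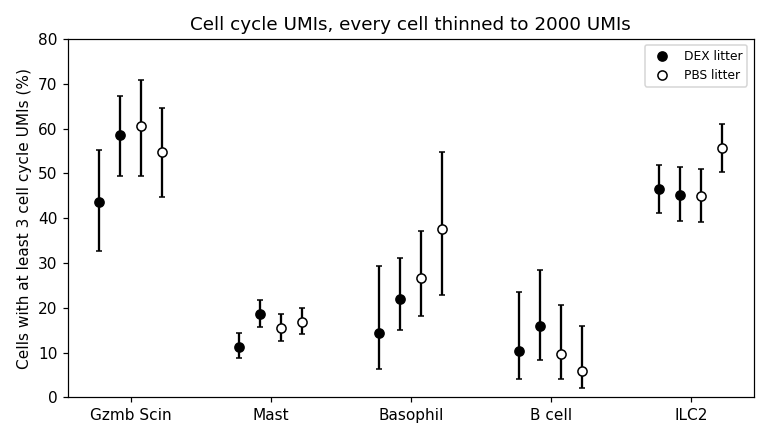
Share of cells (%) with at least 3 UMIs of the S phase and mitosis lists after each cell was thinned to 2000 UMIs, by class and litter (filled, DEX; open, PBS). Bars are 95% Wilson intervals, which cover counting error only. The Gzmb Scin cells lie at 43.7 to 60.5% and mast cells at 11.3 to 18.5%.

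The Gzmb Scin cells were not uniform, and Cma1 and Mcpt8, which the rule did not read in them, divided them. With at least 3 Cma1 UMIs or at least 5 Mcpt8 UMIs as limits, 205 cells (57.6%) had Cma1 only, 58 (16.3%) had both, 19 (5.34%) had Mcpt8 only and 74 (20.8%) had neither. With cells thinned to 2000 UMIs, a Cma1 UMI was found in 69.4% of the Gzmb Scin cells and 7.29% of the B cells, and a Mcpt8 UMI in 20.2% of the Gzmb Scin cells and 4.22% of the mast cells. Cells with both had a median of 22859 UMIs, against 17212 with Cma1 only, 16875 with Mcpt8 only and 13956.5 with neither, and doublets between cells of 1 litter were not removed. Of the barcodes that met the 6 gene criteria, 10.3% had a top hashtag under 3 times the next and were dropped, against 8.91% for the mast cell criteria, 5.7% for the basophil criteria and 15.1% of all passing barcodes. The share with at least 3 Cma1 UMIs was 70.4%, 74.1%, 72.4% and 77.4% in DEX-1, DEX-2, PBS-1 and PBS-2.

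Between the 263 members with at least 3 Cma1 UMIs and the 93 with fewer, 381 of 8531 genes (4.47%) were counted higher and 193 (2.26%) lower in the cells with Cma1, by the same rule over litters and again without a test. Most mast cell markers were higher with Cma1. Tpsb2 was at 236, 728, 786 and 861 CPM in DEX-1, DEX-2, PBS-1 and PBS-2, against 1.92 to 11.9 CPM in cells without. Mcpt4 had 0 UMIs in the cells without, and averaged 299 CPM ± 354 (SD, n = 4 litters) in those with Cma1, so the litters differed widely. Cpa3 averaged 5455 against 1189 CPM, Kit 706 against 282 CPM, Tph1 178 against 6.64 CPM, and the ST2 gene Il1rl1 293 against 101 CPM. In all, 7 of 9 measured mast cell markers, Cma1 itself among them, and 6 of 12 amine and heparin genes were higher with Cma1. Ms4a2, the β chain of the IgE receptor, went the other way, at 149 CPM in the pooled cells without Cma1 against 65.8 CPM in those with it.

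Early granulocyte genes were higher in the summed cells without Cma1, mainly through few of these cells. Mpo, the myeloperoxidase gene of early granulocytes, was at 363, 232, 533 and 761 CPM in them, against 0, 2.09, 2.65 and 27.5 CPM in cells with Cma1. All 3 measured neutrophil and granulocyte progenitor markers (Mpo, Prtn3 and Ctsg) were higher without Cma1. Of 8 measured basophil markers, Mcpt8 and Prss34 were higher without Cma1 and Cpa3 higher with it. Prss34 averaged 1171 against 127 CPM and Cebpa 47.3 against 5.01 CPM. Mpo and Prss34 were highest in the 19 cells with Mcpt8 only, which had 1784 CPM of Mpo, 5132 CPM of Prss34 and 105 CPM of Cebpa, against 68.2, 63.9 and 29.4 CPM in the 74 cells with neither, whose Prss34 was thus below that of the cells with Cma1. Ctsg was at 1613 CPM in the 19 cells and at 31.9 CPM in the 74, which was also below the 80.6 CPM of the cells with Cma1. Of the 19 cells, 13 held a Mpo UMI, against 7 of the 74. Over all members, the 3 highest cells of each litter held 76.6 to 97.5% of the Mpo UMIs.

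The 74 cells with neither protease kept Gzmb at 3941 CPM, Scin at 347 CPM and Nkg7 at 466 CPM. They had 1722 CPM of Lmo4, 317 CPM of Sox4, 319 CPM of Runx1 and 268 CPM of Car1, against 796, 117, 143 and 186 CPM in the cells with Cma1 only. Kit was found in 66 of the 74 cells, at 304 CPM. Their mitosis genes summed to 331 CPM, against 1587 CPM with Cma1 only, 2699 CPM with both and 2322 CPM with Mcpt8 only. The S phase genes differed less, at 1058 CPM against 1648 CPM with Cma1 only. Of the 21 mitosis genes, 16 were counted higher in cells with Cma1 and 0 lower, with a median log2 difference of 1.73. Of 21 S phase genes 0 were counted in either direction, near the 4.47% of all genes higher and 2.26% lower. Their median was 0.633, where all genes had 0.0931, so they also leaned higher with Cma1.

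**Figure D4:**
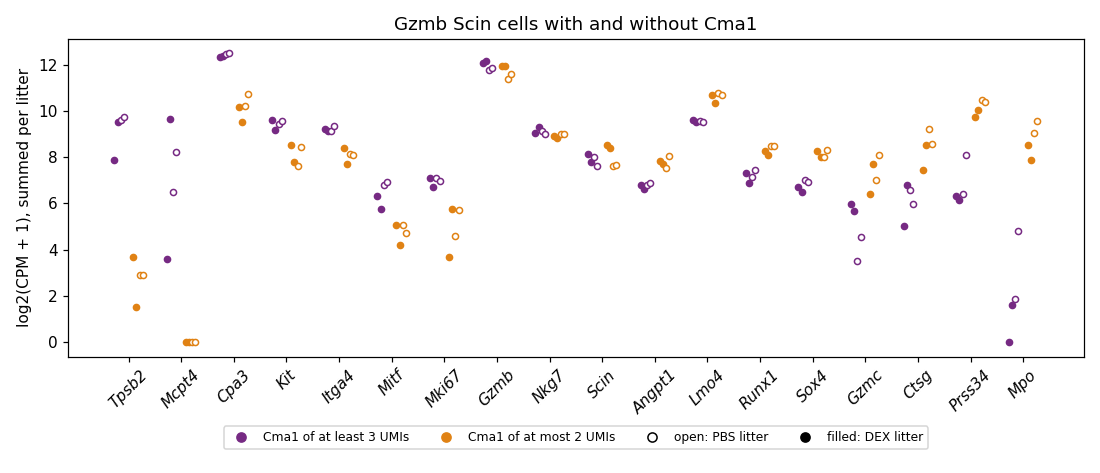
Levels of 18 genes as log2(CPM + 1) per litter (vertical axis) in Gzmb Scin cells with at least 3 Cma1 UMIs (purple) and with at most 2 (orange), with 1 point per litter. Tpsb2, Mcpt4 and Cpa3 are higher with Cma1, Mpo, Prss34 and Ctsg are higher without it, and Gzmb and Scin overlap.

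Gzmb itself did not follow this split. It was at 3527 to 4640 CPM in cells with Cma1 and 2663 to 3914 CPM in cells without, which overlapped, as did Scin at 194 to 281 and 196 to 366 CPM. Gata2 also overlapped, at 636 to 908 and 485 to 922 CPM. The rule set a minimum on Gzmb and on Scin, Angpt1 and Kel together, which limits how far these can differ. Kel was counted higher without Cma1, at 37.3 CPM in the pooled cells without it against 17.5 CPM in those with it. In the 19 cells with Mcpt8 only, Gzmb was at 1771 CPM and Scin at 63.4 CPM.

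The treatment was not used to choose the cells, so DEX and PBS litters could be tested. The Gzmb Scin cells made up 4.1% of the singlets of DEX-1 (71 cells, 95% Wilson interval 3.26 to 5.14%) and 5.03% of those of DEX-2 (116 cells, 4.21 to 6.0%). The PBS litters had 3.96% (76 cells, 3.18 to 4.93%) and 3.52% (93 cells, 2.88 to 4.29%). These intervals cover counting error only. Both DEX litters were above both PBS litters, by 0.826 percentage points on average, against a spread of 0.516 points (SD within groups). The exact permutation test over the 4 litters gave p = 0.333 (two-sided), the smallest value that 2 against 2 litters allow, so the design could not show a difference. For the share of thinned cells with at least 3 cell cycle UMIs the difference was -6.54 points and p = 0.667 by the same exact test, and without DEX-1 it was 0.938 points.

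For the tests below, litter values are CPM after TMM scaling. Of 9333 genes tested with the quasi-likelihood test of edgeR on the litter sums, 0 (0.0%) had an adjusted p under 0.05. At an unadjusted p under 0.05 there were 336, DESeq2 called 1, and edgeR called 91 without a filter on low genes. With 1 litter left out edgeR called 37 (without DEX-1), 27 (without DEX-2), 15 (without PBS-1) or 75 (without PBS-2). In counts simulated at these litter sizes for this comparison, over 9241 genes, 61 of 100 genes changed by a factor of 2 and 99 of 100 changed by a factor of 4 were recovered. The changed genes were drawn only from genes with many UMIs, were changed in the same simulated set, and all genes shared the same dispersion. The simulation thus does not cover genes with few UMIs or with UMIs in few cells. The genes with the lowest p were Mcpt2, Hes1, Chst1, Wfdc2 and Ass1. With 2 litters per group unchanged genes can also fail to overlap between groups, and the share of all genes that did was not counted.

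Hes1, a target of Notch signalling, was at 84.9 and 93.4 CPM in DEX-1 and DEX-2 and at 194 and 178 CPM in PBS-1 and PBS-2. The groups did not overlap, and the log2 fold change was -1.05 ± 0.15 (SE; adjusted p = 0.141, edgeR). DESeq2 gave an adjusted p of 0.0273. A Hes1 UMI was found in 50.7% and 49.1% of the Gzmb Scin cells of the DEX litters and in 65.8% and 72.0% of those of the PBS litters. In mast cells Hes1 was at 77.9 and 111 CPM in DEX and 139 and 187 CPM in PBS litters (log2 fold change -0.79 ± 0.20, adjusted p = 0.737, edgeR).

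Mcpt2, a mucosal mast cell chymase, was at 109 and 113 CPM in DEX and 286 and 550 CPM in PBS litters, a log2 fold change of -1.91 ± 0.25 (adjusted p = 0.141, edgeR). Few cells carried it. The 3 highest cells held 71.9% and 63.9% of its UMIs in DEX-1 and DEX-2, and 82.7% and 86.9% in PBS-1 and PBS-2, where 1 cell had 608 of 908 UMIs. The share of cells with a UMI was 16 of 71, 21 of 116, 18 of 76 and 18 of 93, which differed less than the UMIs did. In mast cells Mcpt2 was at 882 and 922 CPM in DEX and 662 and 1127 CPM in PBS litters, which overlapped. Tested directly in edgeR, the DEX difference in the Gzmb Scin cells was -1.90 ± 0.15 log2 units from that in mast cells (adjusted p = 0.000134), and Mcpt2 was the 1 gene of 11724 (0.00853%) called in that test. In counts simulated for that test over 11692 genes, 31 of 100 genes changed by a factor of 2 and 95 of 100 changed by a factor of 4 were recovered. That simulation had the same limits, so it does not cover a gene such as Mcpt2, whose UMIs sat in few cells.

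Against basophils the DEX difference was called for 1 gene of 8970 (0.0111%), the imprinted gene Mest, with a difference of -4.51 ± 0.50 log2 units (adjusted p = 0.0138, edgeR). It was at 75.2 and 37.9 CPM in DEX and 84.8 and 89.0 CPM in PBS litters of the Gzmb Scin cells, and at 110 and 101 CPM in DEX and 9.09 and 5.15 CPM in PBS litters of the basophils. In the basophils 133 Mest UMIs were counted in all, and 3 cells held 79.7% of them. In the Gzmb Scin cells the 3 highest cells of each litter held 76.4 to 89.1%.

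Epithelial RNA was unequal between the litters. Wfdc2, an airway epithelial secretory gene, was at 29.9 and 53.3 CPM in DEX and 6.95 and 13.3 CPM in PBS litters. Ass1, an arginine synthesis enzyme, was at 66.3 and 50.3 CPM against 15.3 and 27.9 CPM. Both had higher levels in each DEX litter than in each PBS litter. None of the 7 epithelial markers was called, and all had a log2 fold change above 0, with a median of 1.13 against 0.01 for all genes, and they summed to 5240, 4590, 114 and 3940 CPM in DEX-1, DEX-2, PBS-1 and PBS-2. The UMIs sat in few cells: 7 of the 356 held at least 100 UMIs of the surfactant gene Sftpc, 2, 3, 0 and 2 of them in DEX-1, DEX-2, PBS-1 and PBS-2, and they held 96.8% of the class's Sftpc UMIs. Without these 7 cells the log2 fold change of Ass1 went from 1.39 to 0.12, Wfdc2 was removed by the filter on low genes, and that of Mcpt2 was -1.89 (adjusted p = 0.0486, edgeR), which was then the 1 gene called. Hes1 had an adjusted p of 0.0644 (edgeR) in that fit. These cells were left out as an alternative chosen after seeing the data. Among mast cells 75 of 2516 and among basophils 3 of 248 held as many Sftpc UMIs.

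**Figure D5:**
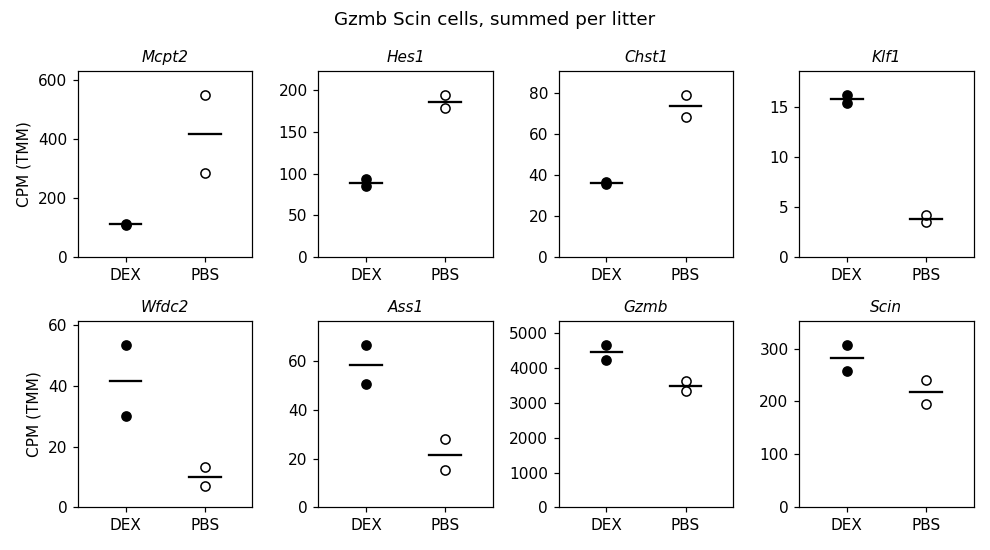
Levels of 8 genes in the Gzmb Scin cells (CPM after TMM scaling, vertical axes from 0) in the 2 DEX litters (filled) and the 2 PBS litters (open), with the group mean as a line. The groups do not overlap for any of them, but with 2 litters per group unchanged genes can also fail to overlap. Mcpt2, Hes1, Chst1, Wfdc2 and Ass1 were drawn as the genes with the lowest p. Gzmb and Scin were read to choose the cells, and no gene passed the adjusted threshold in edgeR.

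The remaining genes described for DEX did not pass the test. Chst1, a sulfotransferase, was at 35.6 and 36.7 CPM in DEX and 79.2 and 68.5 CPM in PBS litters (log2 fold change -1.02 ± 0.18, adjusted p = 0.399, edgeR). Klf1, an erythroid factor, was at 15.4 and 16.2 CPM against 3.48 and 4.24 CPM, and held a UMI in 14 of 71 and 32 of 116 DEX cells against 5 of 76 and 7 of 93 PBS cells (adjusted p = 0.802, edgeR). Gzmb and Scin had log2 fold changes of 0.35 ± 0.10 and 0.36 ± 0.15, given as a description since the rule set a minimum on their UMIs. Of 21 mitosis genes, 0 were called, and all had a log2 fold change below 0, with a median of -0.34.

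The glucocorticoid pathway is the direct target of DEX, which binds the receptor Nr3c1. Of 15 measured target genes, 0 were called, 5 had a log2 fold change above 0 and 10 below, with a median of -0.09. Nr3c1 itself was at 258 and 196 CPM in DEX and 200 and 220 CPM in PBS litters. Fkbp5, a feedback gene of the receptor, was at 45.3 and 31.6 CPM against 48.0 and 39.4 CPM, and Tsc22d3, which encodes GILZ, at 145 and 120 CPM against 110 and 155 CPM. For these 3 genes the DEX and PBS litters overlapped.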

How the data were processed

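The deposited matrix holds raw counts, whole UMIs per gene and barcode, which the authors made with Cell Ranger 7 and the mm10 genome per the labels, in 1 matrix of 10648 barcodes with 4 hashtag rows. Of the barcodes 10409 passed the gene and mitochondrial limits that the study states, and 8598 were singlets; those with a top hashtag under 3 times the next (1575) or under 10 hashtag UMIs (236) were left out. Doublets within a litter share a hashtag and were not removed. The number of mothers in one figure legend is lower than in the methods, labels and hashtags, and the last were followed.

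The members, lists and limits were chosen with earlier results of these data known, including the gene lists and the classes. UMIs were summed per litter and class. DEX against PBS was tested with edgeR 4.0.16 (glmQLFit and glmQLFTest, TMM, filterByExpr, two-sided, Benjamini-Hochberg over all genes tested), without a block for the mother number. The difference of DEX differences between classes was tested in a model with litter, class and class by treatment. Standard errors are the log2 fold change over the square root of F. Nothing in the sources says more of the litters than that they had separate mothers. The p-values measure the spread between 2 litters per group. Fits were tested on simulated data. Class levels are CPM of total UMIs with a pseudocount of 1 before log2. Genes named were those of the lists and the rule, the 15 largest and 15 smallest class differences with at least 50 CPM in the higher class, and for DEX the called genes and the next by p up to 5. The subsets by Cma1 and Mcpt8, Mest, Trbv13-2 and Wfdc2 in single cells, and the cells with Sftpc, were looked at after values were seen. Locations are GENCODE M21 (GRCm38), promoters RefSeq. Alternatives were DESeq2, other scaling, filters, member limits, a replicate block and leaving out each litter. Some items are not reported here.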

Additional observations from a re-analysis of the deposited data

Results flagged for a closer look

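The DEX difference of 2 genes differed between the Gzmb Scin cells and another class by a test of the difference itself. Mcpt2 differed by -1.90 log2 units from mast cells, and in each litter 3 cells held at least 63.9% of its UMIs in the Gzmb Scin cells. Mest differed by -4.51 log2 units from basophils, where 133 UMIs in all were counted. Without the cells with at least 100 Sftpc UMIs, in every class compared, both remained called (-1.80 and -5.49), and Acta2 was added against mast cells and Col4a1 and Serpinh1 against basophils. Whether single cells with many UMIs account for these differences was not tested.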

How the results depend on the processing

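The count of genes called between DEX and PBS in the Gzmb Scin cells was 0, and stayed at 0 with DESeq2 size factors, at least 5 Gzmb UMIs, a hashtag ratio of 5, a mitochondrial limit of 10% and, added after seeing the data, cells of at least 10000 UMIs. It was 1 with DESeq2, 91 without the filter on low genes, 68 (of 4540 tested) without cells with Cma1, and 1 without cells with Sftpc of at least 100 UMIs (added after seeing the data). Leaving out each litter in turn gave 15 to 75, with 37 without DEX-1, 27 without DEX-2, 15 without PBS-1 and 75 without PBS-2, where the lone litter is assumed to vary like the others. With the mother number as a replicate block 5 were called (Mcpt2, Mcpt1, Wfdc2, Hopx and Ager). The numbers share only a number: deviations of same-numbered litters correlated at -0.0416 across genes. The block was fitted for this comparison only.

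For the difference of DEX differences from mast cells, with 1 call, 83 were called without the filter, 2 without the Sftpc cells and 44 to 102 without 1 litter (70 without DEX-1, 60 without DEX-2, 44 without PBS-1 and 102 without PBS-2). From basophils, also with 1 call, there were 44, 3 and 18 to 31 (18, 20, 31 and 26 in the same order). Mcpt2 and Mest remained called in each of these fits. Genes higher than in mast cells were 582, and 224 with a minimum of 50 CPM, 402 in cells of at least 10000 UMIs and 560 without cells with Cma1, of which 294 were among the 582, while those lower went from 566 to 906. Genes higher than in basophils were 1028, and 525 without cells with Cma1, 315 with a minimum of 50 CPM and 596 with TMM scaling. Without 1 litter these were 574 to 657 and 1061 to 1320. The share difference of cell cycle cells was -6.54 points and -14.0 to 0.938 without 1 litter, changing sign without DEX-1, and the difference in the share of Gzmb Scin cells was 0.359 to 1.29 points without 1 litter. Of 177 alternative fits of 13 named genes, 135 kept direction and side of the threshold, 42 passed it, and 0 changed direction. These 13 genes all had an unadjusted p under 0.05 in the main fit, so that they kept direction was largely set by this choice. The causes of the changes in these counts were not tested.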
